A study of Mus musculus with 25 samples.

Results

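Hypothalamic microRNAs were compared between female C57BL/6J mice from dams on a hypercaloric diet and female C57BL/6J mice from dams on a regular diet, with all offspring fed the regular diet after weaning. The first group is called HCD-RD and the second RD-RD, with the diet of the dam before the hyphen and that of the offspring after it. The comparison was chosen by its labels as the deposited table of HCD-RD females against RD-RD females, and it rests on 3 HCD-RD and 3 RD-RD libraries, which are 6 of the 25 libraries of the series. All mice were wild type and 3 months old. The hypercaloric diet (HCD) held 52% fat with high sucrose, and the dams ate their diet from 1 month ahead of mating until their pups were weaned. HCD-RD females therefore met the hypercaloric diet only through the dam, before birth and during nursing, whereas RD-RD females ate the regular diet (RD) throughout. Dams and litters are not named in the labels, nor whether the libraries are separate animals. The p-values then measure only the spread between these libraries, which may be technical.

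The library names carry order numbers. A set of 16 libraries holds each number from 1 to 16 once and includes the RD-RD females, with numbers 2, 1 and 11, the RD-HCD females and the RD-RD males. The HCD-RD females, with numbers 14, 8 and 13, lie outside that set, as do the HCD-HCD females and the HCD-RD males. Library set and maternal diet therefore cannot be told apart in the folds of HCD-RD females, HCD-RD males or HCD-HCD females over RD-RD mice of the same sex, whereas RD-HCD and RD-RD females are in the same set. What the set stands for is not given in the labels.

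MicroRNAs (miRNAs) are small RNAs cut from a hairpin, whose arms each can give a mature miRNA, with the suffix 5p or 3p. A mature miRNA guides a silencing complex to messenger RNAs that pair with its seed, bases 2 to 8 from the 5′ end, and lowers their translation and stability. The hypothalamus sets food intake, energy use, stress and reproductive hormones, and early diet is studied there because its feeding circuits form around birth.

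For each miRNA the authors' deposited table gives 1 fold, the ratio of the normalised level in HCD-RD females to that in RD-RD females, and 1 p-value from DESeq2. No value per library was used here, so overlap between libraries cannot be shown and the sequencing depth is unknown. The standard error of a log2 fold was taken from the fold and its p, and it covers the spread that DESeq2 saw between the libraries. A miRNA was called when its Benjamini-Hochberg adjusted p, over all miRNAs with a p, was under 0.05. Remarks in the authors' deposited table mark miRNAs with a mean of under 10 tags in one group or in both, and these are named as low-count below.

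Of 1618 miRNAs, 1298 had a p, and 22 were called (1.69%), 13 higher (1%) and 9 lower (0.693%) in HCD-RD females. The called miRNAs with a higher level were led by miR-151-5p, miR-674-5p and miR-27b-5p, and those with a lower level by miR-380-5p and miR-298-5p. Unadjusted, 149 miRNAs were under 0.05 (11.5%). The median log2 fold was 0.0 over miRNAs with no low-count remark and -0.06 over all miRNAs with a p. The middle of these miRNAs, from the first to the third quartile, lay between -0.24 and 0.24 on the log2 scale, with a median standard error of 0.34. In the authors' deposited table the folds of called miRNAs lay between 1.7 and 3.07 where higher and between 0.312 and 0.645 where lower, with implied standard errors of the log2 fold from 0.174 to 0.436. Low-count remarks stood beside 3 of the 22, miR-6994-3p, miR-653-3p and miR-489-3p. Under the stricter Holm adjustment 7 calls held, those of miR-151-5p, miR-674-5p, miR-27b-5p, miR-24-3p and miR-342-5p, higher, and of miR-380-5p and miR-298-5p, lower.

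The mature sequences of 20 of the 22 called miRNAs were found in RefSeq (GRCm38.p6), with 20 distinct seeds. Those of miR-151-5p, which had the smallest p, and miR-140-5p were not matched and are not shown. Sequences of selected called miRNAs are shown first, because the seed selects the targets and none is shared among them. They are written 5′ to 3′ with the seed in capitals.
miR-674-5p: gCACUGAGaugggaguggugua
miR-27b-5p: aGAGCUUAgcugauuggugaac
miR-24-3p: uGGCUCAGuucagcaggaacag
miR-342-5p: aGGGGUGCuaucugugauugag
miR-380-5p: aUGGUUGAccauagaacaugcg
miR-298-5p: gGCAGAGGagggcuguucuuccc
miR-135a-5p: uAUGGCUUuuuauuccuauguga
The next set shows the products of the miR-653 and miR-489 hairpins, which lie in the same intron.
miR-653-3p: uUCACUGGaguuuguuucagu
miR-653-5p: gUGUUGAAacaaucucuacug
miR-489-3p: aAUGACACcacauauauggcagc
The last set shows called miRNAs beside relatives with the same seed that were not called, let-7c-5p with let-7a-5p, let-7b-5p and let-7e-5p, miR-7a-5p with miR-7b-5p, and miR-32-5p alone.
let-7c-5p: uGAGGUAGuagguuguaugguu
let-7a-5p: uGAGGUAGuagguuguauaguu
let-7b-5p: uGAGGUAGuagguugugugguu
let-7e-5p: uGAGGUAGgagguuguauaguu
miR-7a-5p: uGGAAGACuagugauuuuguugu
miR-7b-5p: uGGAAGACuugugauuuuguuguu
miR-32-5p: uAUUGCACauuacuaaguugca
Counted from 1 at the 5′ end, let-7c-5p differs from let-7a-5p by G19A, from let-7b-5p by A17G and from let-7e-5p by U9G and G19A, and miR-7a-5p differs from miR-7b-5p by A10U and the longer end of miR-7b-5p.

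**Figure D1:**
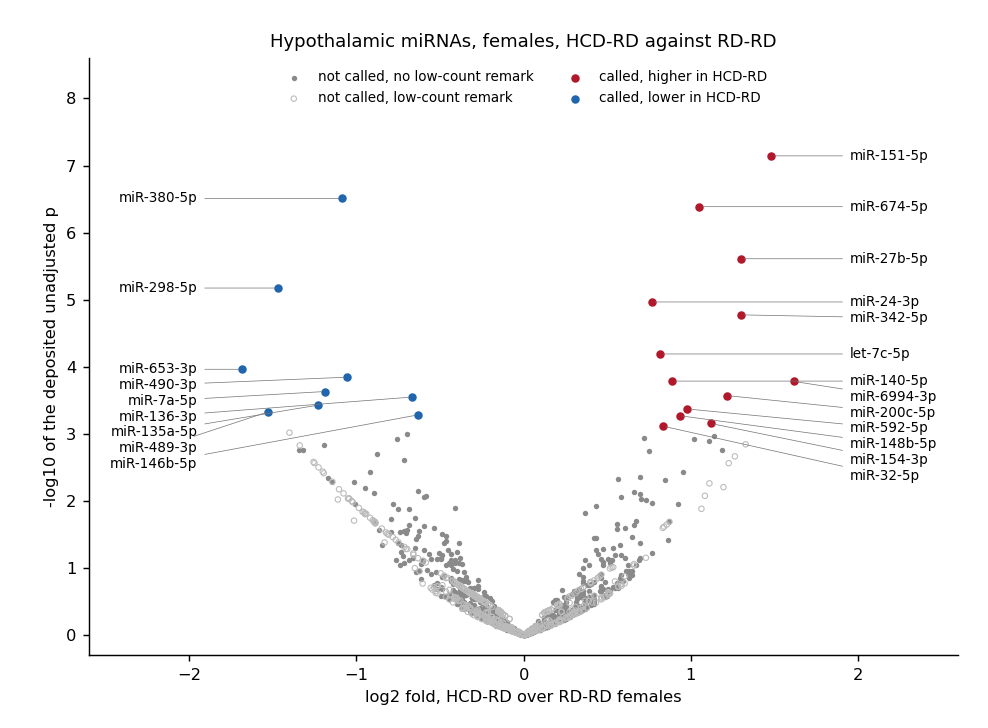
Each point is a miRNA with a p, placed by its log2 fold in HCD-RD over RD-RD females (x axis) and the negative log10 of its deposited unadjusted p (y axis). The 13 miRNAs called higher are red and the 9 called lower are blue, open circles carry a low-count remark, and miR-151-5p and miR-380-5p lie highest on their sides.

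Among higher miRNAs, the authors' deposited table put miR-151-5p at 2.79 times the RD-RD level (log2 fold of 1.48 with an implied standard error of 0.27, adjusted p = 9.3e-05). Its 95% interval ran from 1.92 to 4.05 times. In humans the miR-151 hairpin lies in the gene of focal adhesion kinase. miR-674-5p stood at 2.07 times the RD-RD level by the authors' deposited table (log2 fold of 1.05 with a standard error of 0.21, adjusted p = 0.00018). miR-27b-5p, the less studied arm of a hairpin whose 3p arm represses lipid and blood vessel genes, was at 2.46 times the RD-RD level by the authors' deposited table (log2 fold of 1.3 with a standard error of 0.28, adjusted p = 0.0008).

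miR-24-3p is a cell cycle regulator that in the mouse hypothalamus is also known to repress oxytocin, the neuropeptide of birth, nursing and satiety. The authors' deposited table gave it a fold of 1.7 (95% interval 1.34 to 2.15, adjusted p = 0.0023), with the smallest error of the 13 higher miRNAs (0.17 on the log2 scale). miR-342-5p comes from an intron of Evl, an actin regulator, and its fold in the authors' deposited table was 2.46 (95% interval 1.63 to 3.71, adjusted p = 0.0031). let-7c-5p belongs to the let-7 family, which marks differentiated cells and is held back by Lin28, and was at 1.76 times the RD-RD level by the authors' deposited table (95% interval 1.33 to 2.32, adjusted p = 0.01). The intervals of these 3 miRNAs overlap one another, so their folds cannot be ranked.

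The other higher miRNAs had adjusted p-values between 0.018 and 0.045. miR-140-5p, known from cartilage, had a fold of 1.85 in the authors' deposited table, and miR-6994-3p, with a low-count remark, the highest fold of 3.07 with a 95% interval from 1.71 to 5.5. miR-200c-5p, the minor arm of an epithelial hairpin whose family also acts in neurons that make gonadotropin-releasing hormone, stood at 2.32 in the same source, the authors' deposited table. miR-592-5p, from the locus of the glutamate receptor gene Grm8, had a fold of 1.97 and miR-148b-5p, from an intron of Copz1, one of 1.91 in the authors' deposited table. miR-154-3p, from the imprinted Dlk1-Dio3 region, was at 2.17 and miR-32-5p, from an intron of Tmem245, at 1.78 in the authors' deposited table.

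Among lower miRNAs, miR-380-5p, a repressor of p53 in mouse and human cells, was at 0.472 of the RD-RD level by the authors' deposited table (log2 fold of -1.08 with a standard error of 0.21, adjusted p = 0.00018). miR-298-5p lies beside the imprinted Gnas gene, and the authors' deposited table put it at 0.361 of that in RD-RD females (log2 fold of -1.47 with a standard error of 0.33, adjusted p = 0.0017). miR-490-3p comes from an intron of Chrm2, the muscarinic acetylcholine receptor 2 gene, and was at 0.481 of the RD-RD level by the authors' deposited table (adjusted p = 0.018). miR-7a-5p is enriched in the neuroendocrine cells of hypothalamus, pituitary and islets, and limits insulin secretion in mice. It was at 0.439 of the RD-RD level by the authors' deposited table (95% interval 0.283 to 0.68, adjusted p = 0.023). In a bulk sample, fewer cells of a type and less of the RNA per cell cannot be told apart.

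miR-135a-5p represses the serotonin transporter and a serotonin receptor in mouse neurons. Its fold was 0.426 in the authors' deposited table (95% interval 0.266 to 0.681, adjusted p = 0.03). miR-146b-5p, a brake on NF-kappaB signalling through Traf6 and Irak1, was at 0.645 of the RD-RD level by the authors' deposited table (95% interval 0.504 to 0.826, adjusted p = 0.035), the smallest change among the lower miRNAs. miR-136-3p, cut from a hairpin antisense to the imprinted gene Rtl1, was at 0.629 in the authors' deposited table (adjusted p = 0.024).

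The remaining lower miRNAs, miR-653-3p and miR-489-3p, come from hairpins that start 596 bases apart in an intron of Calcr, the calcitonin receptor gene, whose product binds calcitonin and amylin in feeding centres of the brain. Mir653 lies at chr6:3721301-3721385 and Mir489 at chr6:3721897-3722003 on the minus strand of GRCm38.p6. In the authors' deposited table miR-653-3p was at 0.312 of the RD-RD level (95% interval 0.173 to 0.562, adjusted p = 0.016) and miR-489-3p, known in mice for keeping muscle stem cells quiescent, at 0.347 (95% interval 0.192 to 0.628, adjusted p = 0.034). Both carry a low-count remark. miR-653-5p, the other arm, had no such remark and a fold of 0.394 in the authors' deposited table (p = 0.0018), and its adjusted p of 0.065 missed the threshold. All 3 measured products of the Calcr intron were thus below 0.4 of the RD-RD level by the authors' deposited table, the lowest of them with few tags.

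The last called miRNA had an adjusted p of 0.045 and the first miRNA beyond the threshold one of 0.054. Just beyond it the authors' deposited table listed miR-3475-3p, with a low-count remark, at 0.379, miR-532-5p at 0.617, miR-139-5p at 2.2, miR-191-3p at 1.65, miR-17-5p at 2.03 and miR-344b-3p at 0.592 of the RD-RD level. With only the 755 miRNAs that had a p and no low-count remark, 31 were called, of which 19 were among the 22. The 12 added miRNAs were the last 5 named above, miR-1969, miR-217-5p, miR-3547-3p, miR-3966, miR-653-5p, miR-204-3p and miR-335-5p. The lowest of them in the authors' deposited table were miR-653-5p at 0.394, miR-3547-3p at 0.4 and miR-217-5p at 0.437.

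Neighbouring hairpins within 10000 bases were read next, since they can share a primary transcript. Mir27b at chr13:63300712-63300784 shares a cluster with Mir24-1 at chr13:63301208-63301275 and with miR-23b. The authors' deposited table gave miR-27b-3p a fold of 1.39 (p = 0.09), miR-23b-3p 1.48 (p = 0.0047, adjusted p = 0.12) and miR-23b-5p 1.12, beside the called miR-27b-5p and miR-24-3p. The related cluster on chromosome 8 holds the other copy of miR-24, and its miR-23a-3p and miR-27a-3p had folds of 1.09 and 1.1 in the authors' deposited table. Since mature miR-24-3p is the same from both copies, the share of each copy in its change cannot be told apart.

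Near Gnas, miR-296-3p and miR-296-5p, whose hairpin lies 457 bases from that of miR-298, were at 0.662 (p = 0.024) and 0.654 (p = 0.088) of the RD-RD level by the authors' deposited table, and neither was called. let-7c-5p is made from Mirlet7c-2 beside let-7b on chromosome 15 and from Mirlet7c-1 beside miR-99a on chromosome 16. In the authors' deposited table let-7b-5p had a fold of 1.3 (p = 0.18) and miR-99a-5p one of 0.781 (p = 0.32). miR-141-5p, near miR-200c, had a fold of 1.12 in the authors' deposited table with a low-count remark.

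Of the 22 called miRNAs, 21 had a measured other arm, 24 other arms in all because some mature miRNAs come from several hairpins, and none of the 24 was called by the adjusted DESeq2 p, with folds between 0.394 and 1.52 in the authors' deposited table. Unadjusted, 2 of them, miR-653-5p and miR-490-5p, were under 0.05. Over all miRNAs with a p, 1.69% were called and 11.5% were under 0.05 unadjusted, so both counts are near those shares. miR-151-3p was at 0.909, miR-674-3p at 0.901 and miR-342-3p at 0.787 of the RD-RD level by the authors' deposited table, while each of their 5p arms was called higher. miR-136-5p had a fold of 1.28 beside 0.629 for miR-136-3p in the authors' deposited table. Over 208 hairpins with both arms free of low-count remarks, the log2 folds of the arms had a Pearson r of 0.12 and a Spearman rho of 0.13, and 53.4% of pairs had the same sign. Hairpins are not independent replicates and their arms share the libraries, so these are descriptions. Among these hairpins 14 had 1 arm called and 0 had both, in a table where 1.69% of all miRNAs with a p were called. In males 79 of 194 had 1 arm called and 18 had both, in a table where 18.4% were called, so the counts of the sexes are not comparable.

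**Figure D2:**
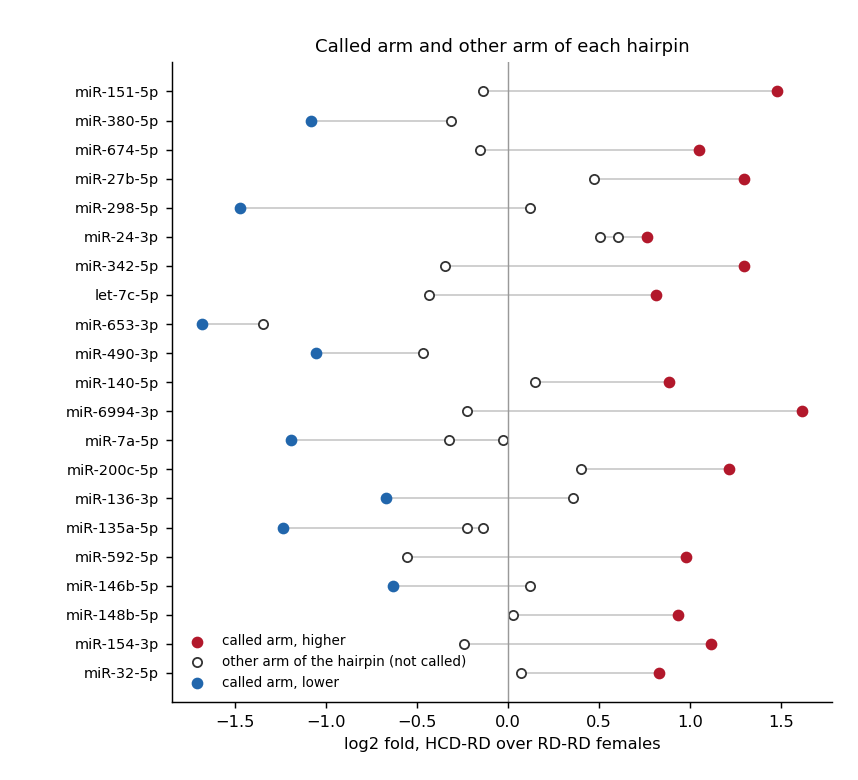
Rows are called miRNAs with a measured other arm and the x axis is the log2 fold in HCD-RD over RD-RD females. Filled points are the called arms, red where higher and blue where lower, and open points are the other arms, which lie between folds of 0.394 and 1.52.

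The seeds of 8 called miRNAs are shared by 20 other miRNAs with a p, of which 0 were called by the adjusted DESeq2 p and 2, let-7i-5p and miR-7b-5p, were under 0.05 unadjusted, beside 1.69% and 11.5% of all miRNAs with a p. In the let-7 family, let-7c-5p was the only called member of 11, while 9 of the 11 had folds above 1 in the authors' deposited table, with a median fold of 1.19 beside 0.962 over all miRNAs with a p. let-7i-5p and let-7d-5p both stood at 1.35 in the authors' deposited table (p = 0.012 and p = 0.053), let-7b-5p at 1.3, let-7k at 1.26, let-7a-5p at 1.19 and let-7e-5p at 0.99. let-7a-5p and let-7b-5p each differ from let-7c-5p at a single base, so reads may be shared between them and single values of the family are uncertain.

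miR-7b-5p, with the seed of miR-7a-5p, was at 0.613 of the RD-RD level by the authors' deposited table (p = 0.03, adjusted p = 0.32). miR-146a-5p, which differs from miR-146b-5p by A18G and C21U, was at 0.962 in the authors' deposited table (p = 0.78) beside 0.645 for miR-146b-5p. Of the relatives of miR-32-5p, miR-92a-3p was at 1.03 and miR-25-3p at 0.901 in the authors' deposited table. Of called miRNAs with no low-count remark and a RefSeq sequence, the 10 higher had a median GC content of 43.6% and the 7 lower one of 40.9%, beside 47.8% over 614 such miRNAs. The Spearman correlation of GC content with the log2 fold over the 614 was 0.03.

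Of 313 listed miRNAs grouped by family, genome region, function or cell type, 299 had a p and 8 of these were called (2.68%, beside 1.69% of all miRNAs with a p). The 1.69% includes many low-count miRNAs, of which 3 were called, while the lists hold few. The other 19 calls fell among the 755 miRNAs with a p and no low-count remark. The list shares here and below are therefore not set beside a like background. The lists were also chosen with earlier results of these data known. The largest group was the Dlk1-Dio3 region of chromosome 12, an imprinted cluster of brain and placental miRNAs expressed from the maternal chromosome. Of 98 members with a p, 1 was called higher, miR-154-3p, and 2 lower, miR-380-5p and miR-136-3p (3.06%, beside 1.69% of all miRNAs with a p). Folds below 1 stood beside 63 of the 98 in the authors' deposited table (64.3%), with a median fold of 0.844, beside 55% and 0.962 over all miRNAs with a p. Unadjusted, 16 members were under 0.05, of which 14 had folds below 1. The miR-770 to miR-370 stretch had a median log2 fold of -0.31 over 28 members and the miR-379 to miR-410 stretch one of -0.19 over 62.

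Within Dlk1-Dio3, single members near the called ones differed in direction. Next to Mir380 at chr12:109711803-109711863, the authors' deposited table gave miR-758-3p a fold of 0.538 (p = 0.0075) and miR-1197-3p, with a low-count remark, 0.437 (p = 0.0039). Close by, miR-379-3p was at 1.38 (p = 0.19) and miR-494-3p at 1.38 (p = 0.12) in the authors' deposited table. At the start of the region, miR-770-5p was at 0.518 of the RD-RD level by the authors' deposited table (p = 0.0064), and near the end miR-410-3p was at 0.578 (p = 0.029). miR-376c-5p, at 1.66 in the authors' deposited table (p = 0.0096), was besides miR-154-3p the only member higher at an unadjusted p under 0.05.

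The list of miRNAs tied to appetite and hormone secretion held 17 members with a p, of which miR-24-3p was called higher and miR-7a-5p lower (11.8%, beside 1.69% of all miRNAs with a p), with a median fold of 0.877 in the authors' deposited table. miR-103-3p, which limits insulin sensitivity in mice, was at 0.667 of the RD-RD level by the authors' deposited table (p = 0.0085, adjusted p = 0.17). Of 18 miRNAs tied to cholesterol, lipid and glucose metabolism 0 were called, beside 1.69% of all miRNAs with a p, and 4 were under 0.05 unadjusted by DESeq2, beside 11.5% of all. All 4 had folds below 1, while 10 of the 18 were above 1 and the median fold was 1.07 in the authors' deposited table. Among these the authors' deposited table put miR-335-5p at 0.543 (adjusted p = 0.069), miR-758-3p, a repressor of the cholesterol exporter Abca1, at 0.538 (adjusted p = 0.16) and miR-33-5p, which is made with Srebf2 and represses Abca1, at 0.725 (adjusted p = 0.33).

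Of 19 neuron-enriched miRNAs 1 was called, the lower miR-135a-5p (5.26%, beside 1.69% of all miRNAs with a p). The median fold of the list was 1.09 in the authors' deposited table, with 11 of the 19 above 1. In the authors' deposited table miR-124-3p and miR-9-5p, abundant in neurons, were at 1.09 (p = 0.71) and 0.935 (p = 0.64), and miR-129-1-3p and miR-138-1-3p at 1.63 (p = 0.0092) and 1.58 (p = 0.0074), with adjusted p-values of 0.17 and 0.16. Low-count remarks were absent for 18 of the 19. The activity-induced miR-132-3p had a fold of 1.49 in the authors' deposited table (p = 0.046, adjusted p = 0.4). Of 16 inflammation-related miRNAs 1 was called, miR-146b-5p (6.25%, beside 1.69% of all miRNAs with a p), and miR-155-5p was at 0.909 in the authors' deposited table (p = 0.71).

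Markers of other cells the tissue could hold gave 0 calls in 6 lists by the adjusted DESeq2 p, and 3 of them, miR-144-5p, miR-204-3p and miR-206-3p, were under 0.05 unadjusted. Over all miRNAs with a p, 1.69% were called and 11.5% were under 0.05 unadjusted. With lists this short, 0 calls do not show that the markers were unchanged. The median folds in the authors' deposited table were 0.935 over 7 leukocyte and microglia markers, 0.83 over 6 erythrocyte markers, 0.832 over 6 endothelial and mural markers, 0.962 over 5 oligodendrocyte markers, 0.98 over 9 choroid plexus and ependymal markers and 1.1 over 6 muscle and liver markers. The member nearest to a call was miR-204-3p of choroid plexus, at 1.68 in the authors' deposited table (p = 0.0018, adjusted p = 0.066), while miR-204-5p was at 1.37 (p = 0.12). Of the 9 choroid plexus and ependymal markers 4 were above 1 and 5 below, among the latter miR-34b-5p at 0.781 and miR-34c-5p at 0.735. miR-142a-5p, of leukocytes and microglia, was at 0.676 in the authors' deposited table (adjusted p = 0.49) and miR-206-3p, of muscle, at 1.83 (p = 0.02, adjusted p = 0.26). Their part in the called changes was not tested.

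In the other families and clusters listed, 0 members were called by the adjusted DESeq2 p and 9 were under 0.05 unadjusted. These lists held from 4 to 17 members with a p each, too few for 0 calls to show that they were unchanged. Over all miRNAs with a p the shares were 1.69% called and 11.5% under 0.05. All 5 miR-101 members were below 1 in the authors' deposited table, with a median fold of 0.741, and so were the 4 members of the miR-183 cluster with a p, with a median of 0.703. The medians in the authors' deposited table were 0.794 for miR-99 and miR-100, 0.901 for miR-17 to miR-92, 1.04 for miR-15 and miR-16, 1.05 for miR-125, 1.06 for miR-30, 1.09 for miR-29, 1.15 for the X-linked miR-322 to miR-450 cluster and 1.16 for the Htr2c intron. The miR-17 to miR-92 members did not share a direction, with miR-17-5p at 2.03 (adjusted p = 0.056) and miR-19b-3p at 0.714 (adjusted p = 0.32) in the authors' deposited table.

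**Figure D3:**
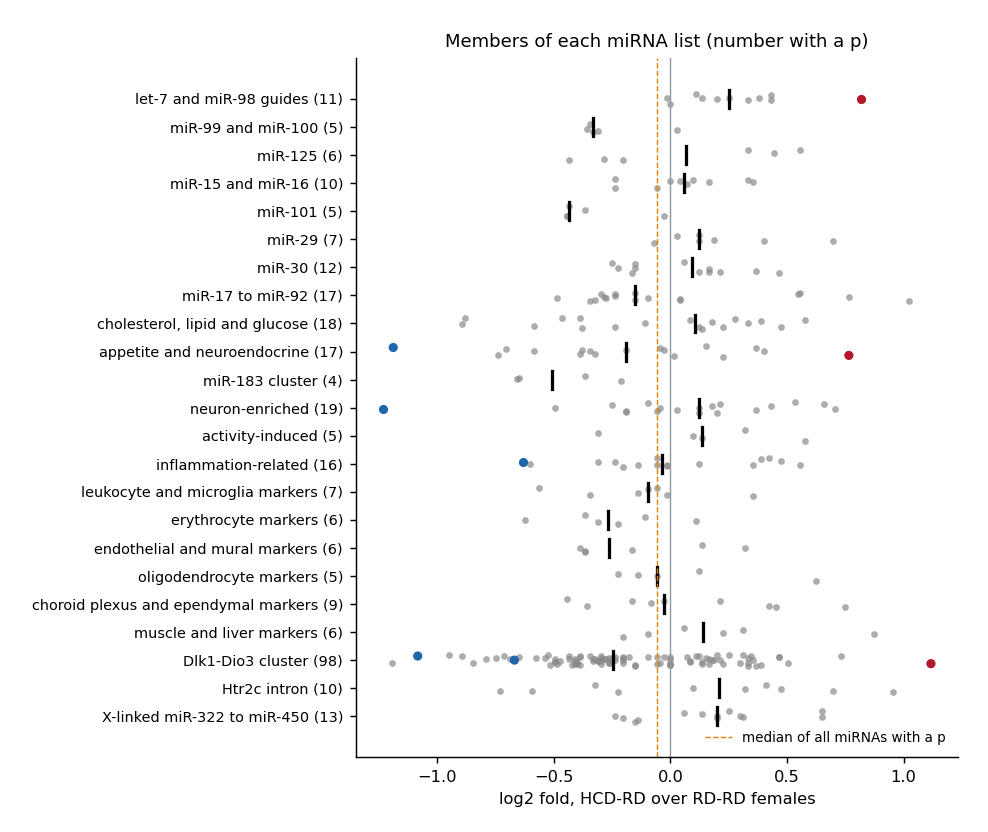
Each row is a miRNA list with the number of members that had a p, and the x axis is the log2 fold in HCD-RD over RD-RD females. Points are members, red or blue where called higher or lower, bars are list medians, and the dashed line is the median of all miRNAs with a p, a fold of 0.962.

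The same maternal diet was studied in males, with 3 HCD-RD and 4 RD-RD libraries in a table normalised on its own. There 262 of 1426 miRNAs were called (18.4%), 91 higher (6.38%) and 171 lower (12%), and 32.1% had an unadjusted p under 0.05. Of the 22 miRNAs called in females, 9 were also called in males, all in the same direction, which is 40.9% of the female calls and 3.44% of the male calls. They were let-7c-5p, miR-342-5p and miR-592-5p, higher in both sexes, and miR-380-5p, miR-298-5p, miR-653-3p, miR-490-3p, miR-136-3p and miR-489-3p, lower in both sexes. The sexes share no library. In the authors' deposited table miR-342-5p was at 2.46 in females and 3.58 in males, and miR-298-5p at 0.361 in females and 0.417 in males. miR-653-3p was at 0.312 in females and 0.219 in males, and miR-489-3p at 0.347 in females and 0.362 in males, in the authors' deposited table.

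The sign of the fold was the same in both sexes for 19 of the 22. The exceptions in the authors' deposited table were miR-32-5p at 1.78 in females and 0.741 in males, miR-140-5p at 1.85 in females and 0.952 in males, and miR-6994-3p at 3.07 in females and 0.99 in males. Over the 695 miRNAs with a p and no low-count remark in either sex, the log2 folds of females and males had a Pearson r of 0.41 and a Spearman rho of 0.37, and 59.7% had the same sign. miRNAs measured in the same libraries are not independent, so this describes the tables.

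The difference between the sexes was tested for 861 miRNAs as the log2 fold in females minus that in males, with the implied errors of both. It passed for 14 (1.63%), all with the higher log2 fold in females, and all 14 were called lower in males and none was called in females. Of the 20 female calls that could be tested, 0 differed between the sexes at an adjusted p under 0.05. Unadjusted, 4, miR-32-5p, miR-136-3p, miR-146b-5p and miR-148b-5p, were under 0.05, as were 153 of the 861 (17.8%). miR-140-5p and miR-6994-3p could not be tested, because their log2 folds in males were too near 0 to imply an error. With errors filled in for small folds, 0 of the 22 female calls differed. With only the 471 miRNAs free of low-count remarks in both sexes, 26 passed, of which 4 had the lower log2 fold in females and 1 was the female call miR-32-5p. Over the 861, miR-32-5p was the nearest of the female calls, with a difference of 1.26 (95% interval 0.51 to 2.02, adjusted p = 0.052). For miR-151-5p the difference was 0.84 (95% interval -0.02 to 1.69), for let-7c-5p -0.05 (-0.67 to 0.57) and for miR-7a-5p -0.42 (-1.44 to 0.61), intervals that leave room for unequal effects.

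**Figure D4:**
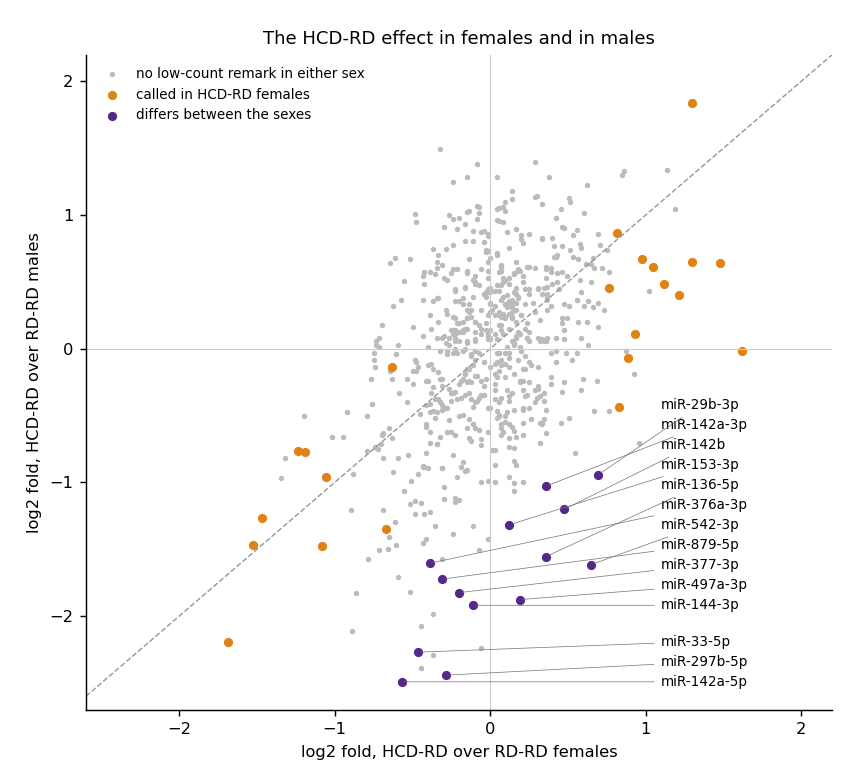
Each point is a miRNA with no low-count remark in either sex, or a miRNA named in the legend, placed by its log2 fold in HCD-RD over RD-RD females (x axis) and in HCD-RD over RD-RD males (y axis). Orange points are miRNAs called in females and purple points the 14 whose folds differ between the sexes, all of which were called lower in males.

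The females of the other diets were compared with the same RD-RD libraries, in another table normalised on its own, so these values share their control with those above and are given side by side. HCD-HCD females, on the hypercaloric diet from dam to adulthood, had 1 called miRNA of 1497 (0.0668%), miR-664-3p at 2.66 in the authors' deposited table, and 84 at an unadjusted p under 0.05 (5.61%). In HCD-RD females miR-664-3p was at 1.8 in the authors' deposited table (adjusted p = 0.12). RD-HCD females, given the hypercaloric diet only after weaning, had 0 called miRNAs (0%) and 15 at an unadjusted p under 0.05 (1%) by the deposited DESeq2 p. Over miRNAs with no low-count remark, the SD of their log2 fold was 0.23 beside a median standard error of 0.4. In HCD-RD females the SD was 0.41 and the median error 0.34, and in HCD-HCD females 0.46 and 0.4. With adjustment over only these miRNAs, 11 of 648 were called in HCD-HCD females, 3 higher and 8 lower. The same setting gave 31 of 755 in HCD-RD females and 0 of 847 in RD-HCD females. The errors differ, so the counts of calls cannot be compared directly between the tables.

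Over the 22 miRNAs called in HCD-RD females, the folds in the authors' deposited table lay between 0.312 and 3.07 in HCD-RD females, between 0.529 and 2.77 in HCD-HCD females and between 0.645 and 1.16 in RD-HCD females. Unadjusted, 9 of the 22 were under 0.05 in HCD-HCD females and 0 in RD-HCD females, beside 5.61% and 1% of all miRNAs with a p. The 0 is near its share. The 22 were chosen by their difference from the same RD-RD libraries, so the counts are not independent of that choice. The HCD-HCD libraries, like the HCD-RD libraries, lie outside the set of 16 that holds the RD-RD females, and the RD-HCD libraries lie inside it. The contrast between HCD-HCD and RD-HCD females thus follows the library set as well as the diet of the dam. miR-342-5p was at 2.46 in HCD-RD, 2.77 in HCD-HCD and 1.03 in RD-HCD females in the authors' deposited table, and let-7c-5p at 1.76 in HCD-RD, 1.97 in HCD-HCD and 1.1 in RD-HCD females. miR-151-5p was at 2.79 in HCD-RD, 1.83 in HCD-HCD and 1.16 in RD-HCD females in the authors' deposited table. miR-146b-5p was at 0.645 in HCD-RD, 1 in HCD-HCD and 1.05 in RD-HCD females in the authors' deposited table. miR-7a-5p was at 0.439 in HCD-RD, 0.725 in HCD-HCD and 0.645 in RD-HCD females in the authors' deposited table. The folds of low-count miRNAs are on another scale in the 2 female tables. Where only 1 group averaged under 10 tags, the SD of the log2 fold was 0.53 in the table of HCD-RD females and 0.18 for HCD-HCD females. The values of miR-653-3p, miR-489-3p and miR-6994-3p, which are in the ranges and counts above, are therefore not comparable in size between these tables.

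**Figure D5:**
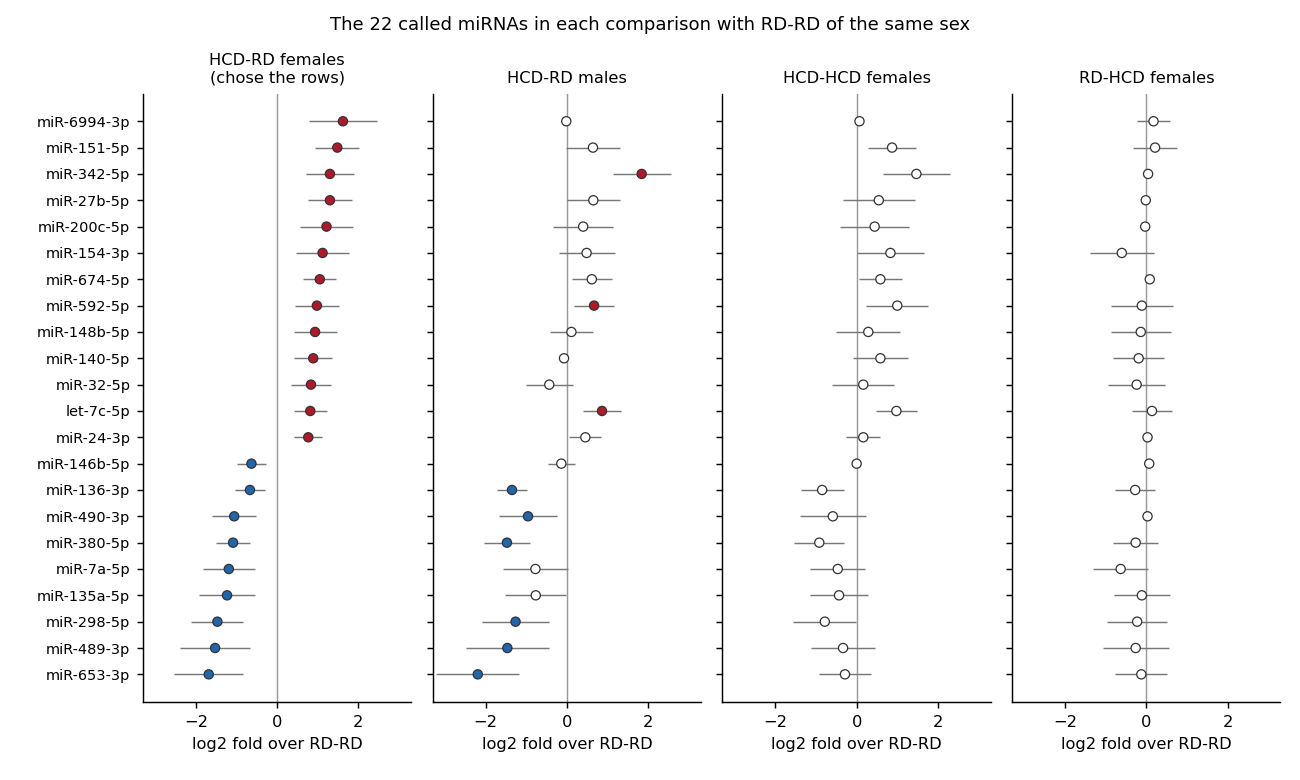
Rows are the 22 miRNAs called in HCD-RD females and the panels show their log2 fold over RD-RD of the same sex in each comparison, with bars for the 95% interval where an error could be implied. The HCD-RD female panel chose the rows, the low-count miR-653-3p, miR-489-3p and miR-6994-3p are on another scale in the last 2 panels, and the folds in RD-HCD females stay between 0.645 and 1.16.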

How the data were processed

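Small RNA of hypothalami was sequenced by the submitters from QIAseq miRNA libraries, and the submitters' processing notes name build mm10. Of the aligner and the counting rule, nothing is given in the sources used here. The deposited tables hold, per the file headers, the fold (ratio of the normalised tag counts of a group to its control, 2 decimals), the fold regulation (a signed score, minus the inverse of the fold where it is below 1) and an unadjusted p-value from DESeq2 (no version given in the sources used here), all made by the authors.

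From these, folds below 1 were taken as the inverse of the fold regulation, and p-values were Benjamini-Hochberg adjusted over rows starting with mmu- that hold a p. The standard error of a log2 fold is the size of that log2 fold divided by the normal score of its p. It was left out where the log2 fold was smaller than 0.1. Intervals of 95% span it on both sides. The difference between sexes used a two-sided normal test on both errors, adjusted over 861 miRNAs. The calculations used Python 3.11.15, pandas 2.3.3 and SciPy 1.17.1, and were tested on simulated data.

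Sequences and hairpin positions are RefSeq's on GRCm38.p6 and hosts GENCODE's. Of 1618 names, 1302 matched a mature sequence. Named miRNAs were the 12 smallest p-values in each direction at an unadjusted p under 0.05 without a low-count remark, the 5 in each direction with one, called list members, up to 3 members per list by p, miR-33-5p and miR-142a-5p, and the 5 smallest p-values of the sex difference in each direction. Neighbours, arms and seed relatives of called miRNAs were added after their values were seen, as were miR-664-3p, miR-124-3p, miR-9-5p, miR-155-5p and miR-204-5p. The members and lists were chosen with earlier results of these data known. The sample sheet names 43 libraries, and 22 of those names matched a sample title.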

Additional observations from a re-analysis of the deposited data

Results flagged for a closer look

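The fold of HCD-RD over RD-RD mice differed between females and males for 14 miRNAs. The normal test of the difference in log2 fold was used, with Benjamini-Hochberg adjustment over 861 miRNAs. Differences are the log2 fold in females minus that in males. Each of the 14 was called lower in HCD-RD males and none was called in HCD-RD females. The authors' deposited table put miR-33-5p at 0.725 of the RD-RD level in females and 0.207 in males, a difference of 1.8, and miR-142a-5p at 0.676 in females and 0.178 in males, a difference of 1.92.

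The difference was 1.38 for miR-142a-3p, the other arm of the miR-142a hairpin, and 1.68 for miR-142b. In the Dlk1-Dio3 region the differences were 1.91 for miR-136-5p, 1.21 for miR-376a-3p and 1.62 for miR-377-3p. The authors' deposited table put miR-136-5p at 1.28 of the RD-RD level in females and 0.34 in males.

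The other differences were 1.64 for miR-29b-3p, 2.26 for miR-542-3p, 1.81 for miR-144-3p, 1.44 for miR-153-3p, 1.41 for miR-879-5p, 2.15 for miR-297b-5p and 2.06 for miR-497a-3p. The last 2 carry a low-count remark in at least 1 sex. The authors' deposited table put miR-29b-3p at 1.62 of the RD-RD level in females and 0.521 in males. The median log2 fold over all miRNAs with a p was -0.06 in females and -0.25 in males, and over miRNAs with no low-count remark 0.0 in females and 0.08 in males. RD-RD males and RD-RD females are in the same library set and the HCD-RD libraries of both sexes lie outside it. Library set and maternal diet therefore cannot be told apart in the folds behind these differences, and the part of the set was not tested.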

How the results depend on the processing

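Of the 22 calls, 7 held under Benjamini-Yekutieli and 7 under Holm adjustment (5 higher and 2 lower in each), and 14 had a fold of at least 2 in either direction (7 higher, 7 lower). At an unadjusted p under 0.01, 73 miRNAs passed, 34 higher and 39 lower, so 46.6% were higher beside 59.1% of the calls, and the balance turned. The count was 31 without low-count miRNAs, 22 with piRNA entries in the adjustment and 22 at a fold of at least 1.5. The sex difference passed for 26 of 471 miRNAs without low-count remarks (22 higher and 4 lower in females, 12 of the 14 included), 29 with each table centred on its median, and 40 of the 389 with p under 0.05, before adjustment, in females or males (34 higher and 6 lower). In each of these 3 settings miR-32-5p also passed, with adjusted p-values of 0.035, 0.028 and 0.024. Those lower in females included miR-125b-5p, at 0.741 in females and 1.46 in males in the authors' deposited table. With errors filled in for small folds, a setting added after the data were seen, 17 of 1243 passed. The settings for the calls changed adjustments and cutoffs and not the folds, so no call could change direction under them. Of the list medians, that of the oligodendrocyte markers changed direction, with a log2 fold of -0.057 and, without low-count members, 0.034. Benjamini-Yekutieli and Holm adjustment each dropped the same 15 of the 22 calls, and the fold of 2 dropped 8. No paired analysis was possible because the tables hold no value per library, and for the same reason leaving out a replicate was not run and the depth behind each fold is unknown. Females have 3 RD-RD libraries and males 4, and the tables of the sexes were normalised separately.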
